A study of Mus musculus with 6 samples.

Results

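Long intergenic noncoding RNAs (lincRNAs) are transcripts without a known protein whose genes lie between protein-coding genes. The group described here holds those on chromosomes 1 to 19 that carry a gene name of their own. It was built from the table's biotype column. Clone names beginning with Gm and a digit or ending in Rik were left out, as were the imprinted RNAs H19, Meg3, Rian, Mirg, Kcnq1ot1 and Airn. The rule found 144 of the table's 54100 genes, among 5291 lincRNA rows, and 52 of them had the 30 or more counts over the 6 libraries that were needed for analysis. Of the other 92, 41 had 0 counts. Just inside the limit lay AW112010 with 30 counts and Bvht with 33, and just outside lay AC154200.1, BC051077 and Platr22 with 28 each. A name does not always mean a studied gene, since 17 of the 52 carry accession-like names such as AU020206.

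Some lincRNAs build nuclear bodies, as Neat1 does for paraspeckles. Others serve as hosts from which small nucleolar RNAs (snoRNAs, guides for the modification of other RNAs) or microRNAs (short repressors of messenger RNAs) are cut, and a few act on a neighbouring gene. The testis is known for transcribing very many lincRNAs, most of them in spermatocytes and round spermatids, the meiotic and early postmeiotic germ cells.

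The study sequenced RNA of testis cryosections, with 3 libraries labelled wild type (WT) and 3 labelled H3t deletion, 1 per mouse number. H3t is a testis form of histone H3. The sources used here do not give strain, age or whether 1 or both copies were deleted. Library totals lay between 8037826 and 10702930 counts. H3f4, the current symbol of the targeted gene, was read 390, 571 and 356 times in the WT libraries and not once in a deletion library, at least 638-fold lower. Levels below are CPM, counts scaled to a common library size by TMM. Log2 changes are deletion minus WT, and adjusted p-values come from edgeR's quasi-likelihood test, adjusted by Benjamini and Hochberg's method over all 17038 genes tested.

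Marker genes of testis cell types differed between the groups. The 15 listed spermatid genes took 2.52% to 2.66% of the counts in WT and 0.012% to 0.0237% in the deletion, and 14 spermatocyte genes 0.64% to 0.675% and 0.0608% to 0.0667%. Of 12 tested spermatogonia genes 7 rose, 3 fell and 2 were not called, at a median log2 change of 1.56. All 20 Sertoli genes, 14 Leydig genes and 10 macrophage genes rose, with median log2 changes of 2.27, 2.88 and 2.94, and 5 of 6 endothelial and 5 of 6 myoid genes rose, at medians of 1.31 and 1.21. Markers of the labelled tissue were present in both groups. In bulk tissue, fewer cells of a type and less RNA per cell cannot be told apart, and the part of these shifts in the lincRNA results was not tested beyond the values at Sertoli level given below.

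The named lincRNAs moved both ways. Of the 52, 39 had counts enough for the test, 15 rose, 16 fell and 8 were not called. That is 38.5% higher and 41% lower, or 79.5% called in all, against 38.4%, 46.1% and 84.5% of all genes tested, so the share called lay near the background. In 31 of the 39, or 79.5%, the 3 WT and 3 deletion libraries did not overlap, against 85.9% of all genes tested. Losses were larger than gains. A log2 change of -3 or beyond was found in 13 members, 33.3%, against 23.7% of all genes tested, and one of 3 or more in 2 members, 5.13%, against 3.46%. Among clone-named lincRNAs of the same chromosomes, 629 of 739 tested fell and 65 rose, with a median log2 change of -7.77, and of 14305 protein-coding genes, 6079 were higher and 6059 lower, the median being 0.05. The median of the named members was -0.38 and that of all genes -0.19. The difference between these classes was not tested.

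**Figure D1:**
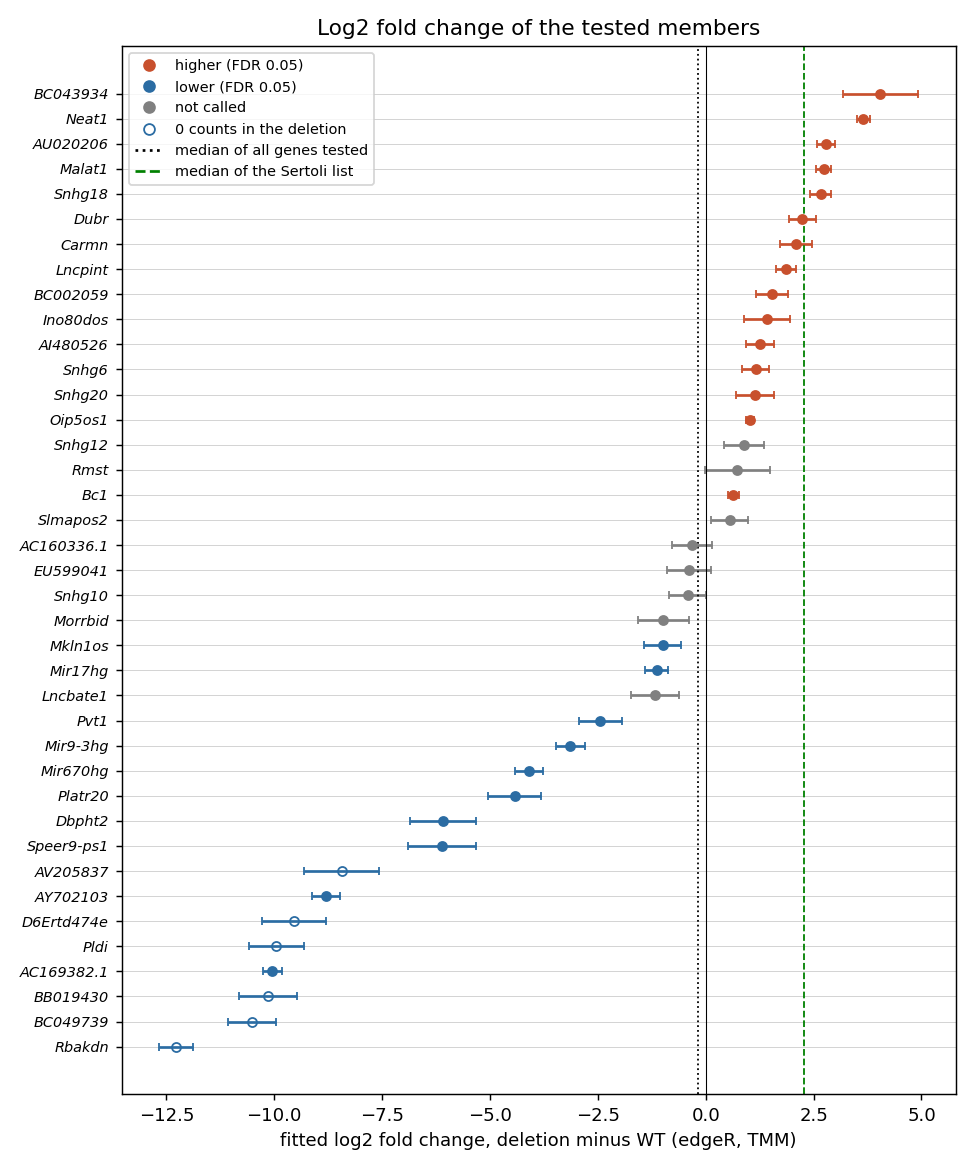
Fitted log2 fold change (x axis, deletion minus WT) of the 39 tested members, with bars of 1 standard error. Open circles have 0 counts in the deletion, so that their fitted value is no bound. The dotted line marks the median of all genes, -0.19, and the dashed line the median of the Sertoli list, 2.27. Of the 15 members that rose, 5 lie above the dashed line.

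Both nuclear-body RNAs rose. Malat1 (chromosome 19, 5795690 to 5802672, minus strand, 1 exon), an RNA of nuclear speckles, drew the most counts, at 2639, 2506 and 2613 CPM in WT replicates 1, 2 and 3 and at 20359, 19275 and 11803 CPM in deletion replicates 1, 2 and 3. The WT libraries lay close together, while deletion replicate 3 stood well below the other deletion libraries and still far above WT. Its log2 change was 2.73 with a standard error of 0.17 (adjusted p = 6.02e-10). Neat1 (chromosome 19, 5824708 to 5845478, minus strand), the scaffold of paraspeckles, lies on the same strand of the same chromosome and was at 75.2, 93.6 and 82.8 CPM in WT and 1214, 1140 and 808 CPM in the deletion. It too was lowest in deletion replicate 3 within its group, and the groups did not overlap. Its log2 change of 3.65 (standard error 0.15, adjusted p = 2.32e-12) stood above the Sertoli, Leydig and macrophage medians. It lay within the range of each of these lists, whose largest log2 changes were 3.97, 3.77 and 3.89. Per kilobase of exon, Malat1 went from 370 to 2455 CPM and Neat1 from 4.04 to 50.7 CPM. The list of nuclear-retained RNAs held 3 tested members, 2 higher and 0 lower, and over all of its 5 tested genes 3 rose, 0 fell and 2 were not called, at a median of 2.07. The member not called was Rmst, an RNA of neural development, at 0.934, 1.51 and 0.705 CPM in WT and 1.93, 0.0904 and 3.34 CPM in the deletion, with overlapping groups. Its log2 change was 0.73, and without deletion replicate 2 it was 1.30 and called.

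Malat1 and Neat1 set the total. All 52 members took 0.286%, 0.274% and 0.283% of the counts in WT and 2.67%, 2.64% and 1.65% in the deletion. Malat1 alone held 73.1% to 73.7% of the members' counts in WT, and 90.1% to 92.2% of those in the deletion libraries. Without Malat1 and Neat1, the other 50 members took 0.0679% ± 0.00267 (SD, n = 3) of WT counts. In the deletion they took 0.0611% ± 0.000369 (SD, n = 3), a difference of -0.00676 percentage points against 2.04 for all members. For each difference an exact permutation test, two-sided, gave p = 0.1, the smallest that 3 against 3 libraries allow. Of autosomal counts, all 52 members took 0.302% in WT and 3.09% in the deletion, a wider difference of 2.79 points. The share of the other 50 was not taken of autosomal counts. The sign of their small difference is therefore known for all counts only.

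**Figure D2:**
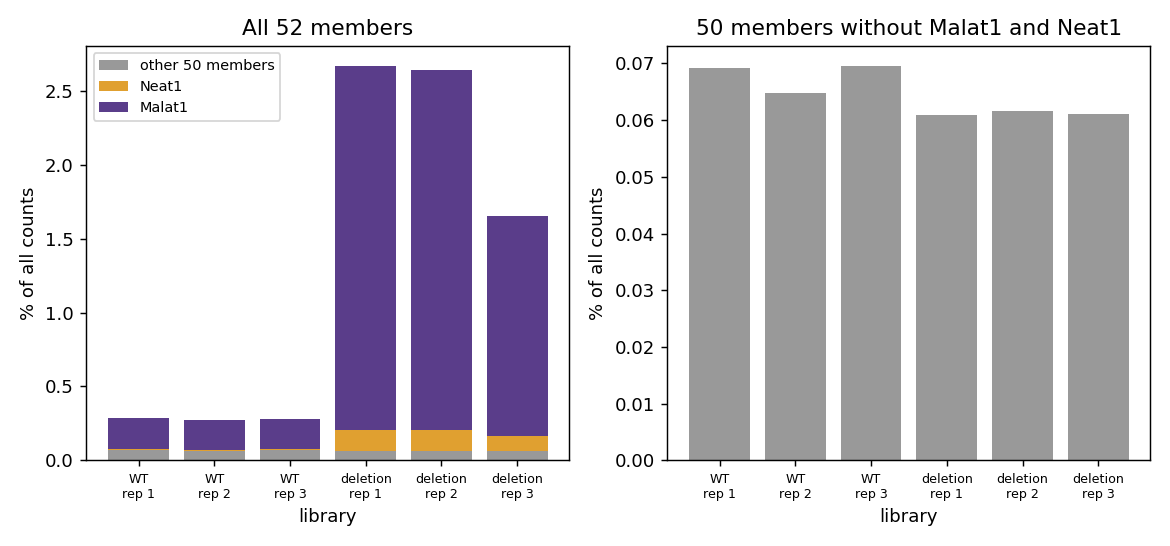
Share of all counts (y axis, percent) taken by the 52 members in each library (x axis), stacked as Malat1, Neat1 and the other 50, and at right the other 50 alone. The total rises from at most 0.286% in WT to at least 1.65% in the deletion, whereas the other 50 lie between 0.0609% and 0.0696% in every library.

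Deletion replicate 3 was the lowest deletion library for 9 of the 15 members that rose, and for 36.8% of all 6542 genes that rose. Its log2 ratio to the mean of deletion replicates 1 and 2 was -0.75 for Malat1 and -0.54 for Neat1, with a median of -0.28 over the 15 members and -0.03 over all genes that rose. Leaving that library out left both calls in place.

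Several members disappeared from the deletion libraries. Rbakdn, Pldi, D6Ertd474e, BC049739, BB019430 and AV205837 had 0 counts in all 3, which 1185 of all 17038 tested genes, or 6.96%, did as well. With 3 counts over the deletion libraries as the floor, or 0.0926 CPM, these losses are bounds that cover counting error only. Rbakdn (chromosome 5, 143164779 to 143165751, minus strand, 2 exons in its longest transcript), named as the downstream neighbour of the zinc finger gene Rbak, was at 64.8, 77.2 and 61.5 CPM in WT and is at least 732-fold lower. Pldi (chromosome 10, 60928226 to 60938132, minus strand), known as an RNA of postmeiotic germ cells whose gene arose in mice from intergenic DNA, was at 15.6, 13.6 and 11.6 CPM in WT and is at least 147-fold lower. D6Ertd474e, at 7.89 to 13.6 CPM in WT, is at least 110-fold lower. The other members at 0 were named after their values were seen and range from at least 51.6-fold lower for AV205837 to at least 219-fold lower for BC049739.

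Another set kept a few counts. AC169382.1 (chromosome 1, 58997123 to 59003539, minus strand), named after its values were seen, drew the most counts in WT after Malat1, at 315, 278 and 326 CPM. In deletion replicates 1, 2 and 3 it had 3, 6 and 0 counts. Its log2 change was -10.04, or -10.94 without deletion replicate 2. AY702103, also named afterwards, held 102 to 127 CPM in WT and 8, 0 and 0 counts in the deletion, at -8.80, or -12.99 without deletion replicate 1 and -8.21 without deletion replicate 2. In both, the size of the loss rests on single libraries and its direction does not. Dbpht2, Speer9-ps1, a pseudogene of a family of spermatogenesis-associated proteins, and Platr20, named for pluripotent cells, fell with log2 changes of -6.09, -6.12 and -4.43. These became -8.50, -7.76 and -5.51 without deletion replicates 3, 1 and 2 respectively. All of these calls had adjusted p-values between 4.65e-15 and 5.78e-06 by edgeR's quasi-likelihood test.

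**Figure D3:**
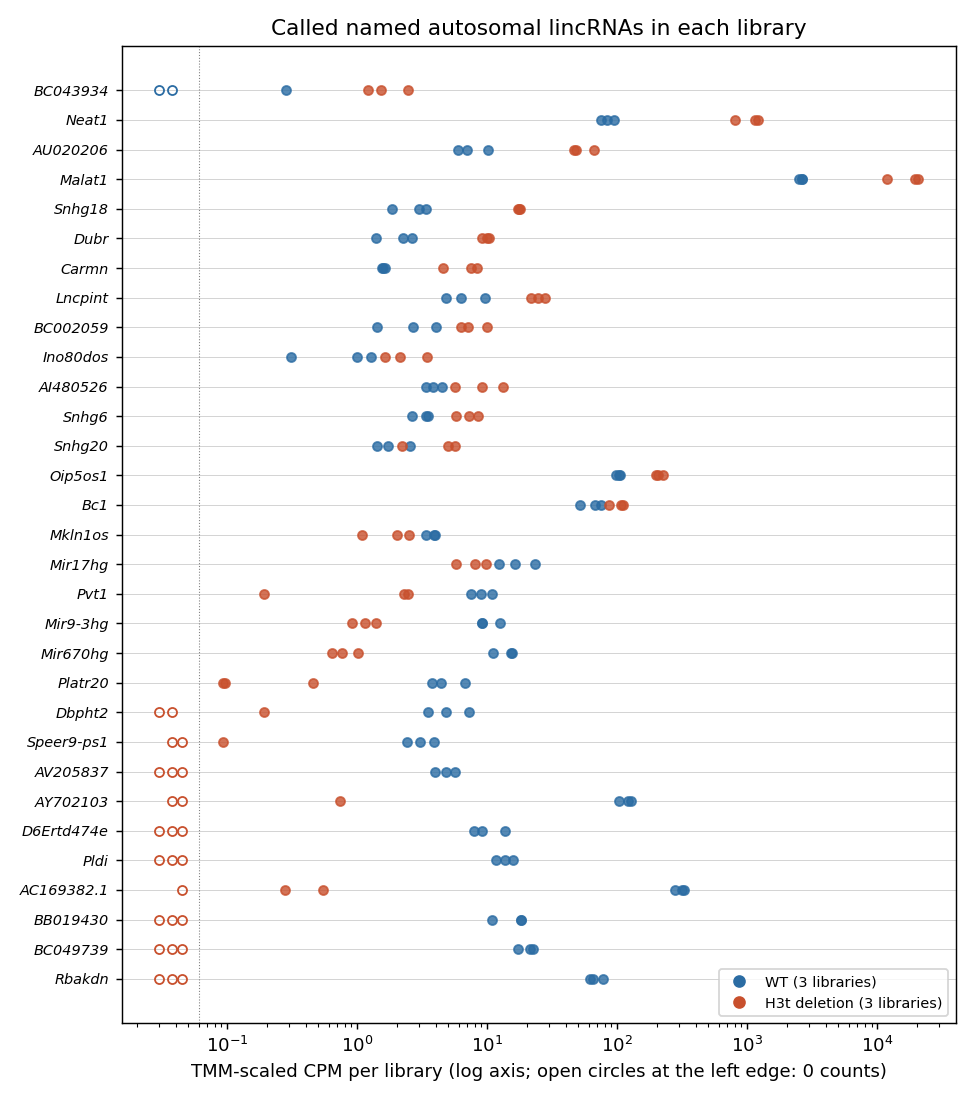
TMM-scaled CPM of the 31 called members (rows, ordered by log2 change) in each of the 6 libraries, on a log axis. Open circles at the left edge stand for 0 counts and are spread sideways so that they can be seen. For all rows but Snhg20 the WT and deletion libraries lie apart.

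Promoters of members that were lost and of members that rose are set side by side here, since the sequence was used neither by the rule nor by the test. They run from 250 bases before to 50 after the RefSeq start on GRCm38.p6, read 5′ to 3′ on the gene's strand. Capitals mark matches, on either strand, to a GC box (GGGCGG), a cyclic AMP response element (TGACGTCA), a CCAAT box (CCAAT) or a TATA box (TATAAA), none of which contains another. Of the 52 members, 27 had a RefSeq promoter and 19 had one whose start lay within 100 bases of the GENCODE start. The first 3 belong to members at 0 in the deletion, at chr5:143165702-143166001, chr10:60938083-60938382 and chr10:58696495-58696794, and the last 3 to members that rose, at chr19:5802623-5802922, chr15:32244613-32244912 and chr16:50732724-50733023.
Rbakdn: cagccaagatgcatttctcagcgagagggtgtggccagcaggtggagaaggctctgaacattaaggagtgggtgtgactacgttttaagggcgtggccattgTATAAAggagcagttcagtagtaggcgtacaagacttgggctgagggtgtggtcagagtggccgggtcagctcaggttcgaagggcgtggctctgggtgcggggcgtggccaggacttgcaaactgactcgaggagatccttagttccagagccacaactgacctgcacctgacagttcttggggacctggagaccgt
Pldi: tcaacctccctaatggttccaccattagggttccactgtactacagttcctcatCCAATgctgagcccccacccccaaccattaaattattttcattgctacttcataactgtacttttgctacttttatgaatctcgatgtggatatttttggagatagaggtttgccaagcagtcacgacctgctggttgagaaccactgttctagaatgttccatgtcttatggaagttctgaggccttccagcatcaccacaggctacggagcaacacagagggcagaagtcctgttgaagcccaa
BB019430: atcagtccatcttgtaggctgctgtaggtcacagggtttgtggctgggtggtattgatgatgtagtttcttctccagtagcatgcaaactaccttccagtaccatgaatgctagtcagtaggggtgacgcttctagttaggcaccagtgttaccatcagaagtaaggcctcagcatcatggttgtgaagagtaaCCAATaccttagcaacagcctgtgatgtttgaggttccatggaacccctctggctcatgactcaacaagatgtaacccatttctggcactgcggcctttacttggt
Malat1: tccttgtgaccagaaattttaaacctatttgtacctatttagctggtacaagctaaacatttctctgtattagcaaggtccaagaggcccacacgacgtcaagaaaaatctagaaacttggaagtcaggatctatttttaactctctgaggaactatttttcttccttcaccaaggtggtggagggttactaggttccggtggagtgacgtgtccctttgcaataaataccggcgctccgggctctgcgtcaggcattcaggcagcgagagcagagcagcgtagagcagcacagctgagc
Snhg18: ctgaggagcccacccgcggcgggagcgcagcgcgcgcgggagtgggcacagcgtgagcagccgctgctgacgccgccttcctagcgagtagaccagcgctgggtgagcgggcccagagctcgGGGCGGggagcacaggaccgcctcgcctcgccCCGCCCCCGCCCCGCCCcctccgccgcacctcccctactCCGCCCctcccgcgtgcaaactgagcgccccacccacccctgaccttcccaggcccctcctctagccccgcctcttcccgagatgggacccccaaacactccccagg
Dubr: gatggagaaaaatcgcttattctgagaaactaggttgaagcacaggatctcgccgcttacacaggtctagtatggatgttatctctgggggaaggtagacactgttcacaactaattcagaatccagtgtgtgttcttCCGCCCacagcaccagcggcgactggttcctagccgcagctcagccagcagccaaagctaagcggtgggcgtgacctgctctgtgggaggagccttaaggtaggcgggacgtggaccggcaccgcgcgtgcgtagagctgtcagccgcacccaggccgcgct

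CpG pairs were sparse in Pldi, with 3 in the 300 bases, and in BB019430, with 2. Rbakdn held 11, Malat1 10, Dubr 19 and Snhg18 31. A GC box was found in 4 of the 7 promoters of members that rose and in 3 of the 8 of members that fell, and in 35.7% of all 32851 promoters. Median CpG counts were 15 and 8, against 7 over all promoters. A TATA box stood in 0 of the 7 and 2 of the 8, against 13.6% of all. Matches to the cyclic AMP response element numbered 0 and 1, against 1.79%. A CCAAT box stood in 4 of the 7 and 4 of the 8, against 37.4%. With so few promoters these are descriptions.

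Among the named snoRNA hosts 3 rose. Of 5 tested members 3 were higher, 0 lower and 2 not called, with a median log2 change of 1.15. Of all 15 tested genes of the list, whatever their biotype, 4 rose, 2 fell and 9 were not called, at a median of 0.29. The 2 that fell, Snhg3 and Snhg8, were at -1.97 and -0.89 and carry another biotype. Snhg18 (chromosome 15, 32240565 to 32244662, minus strand) went from 2.96, 3.37 and 1.83 CPM in WT to 17.7, 17.4 and 17.2 CPM in the deletion, where its libraries were closely matched. Its log2 change was 2.66 with a standard error of 0.25 (adjusted p = 8.79e-08). Snhg6 went from 3.17 ± 0.459 to 7.15 ± 1.4 CPM (SD, n = 3), a log2 change of 1.16. Snhg20 was at 1.15 with overlapping groups, and leaving out WT replicate 1, WT replicate 3, deletion replicate 1 or deletion replicate 2 ended its call at 1.04, 0.93, 0.91 and 1.04. Snhg10 and Snhg12 had log2 changes of -0.42 and 0.88 and were not called, though Snhg12 was at 1.15 and called without deletion replicate 3.

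The small RNAs inside these hosts give a second readout. The table lists 26 small RNA genes within members on the same strand. All 16 that lie in a member's exon were listed at 0 in every library, and 4 of the 10 that lie outside exons had counts. Reads over those 16 also lie over a host's exon, and how such reads were assigned is not stated. Their zeros therefore do not show that these small RNAs were absent. Snord87, a snoRNA in an intron of Snhg6, was at 3.58, 3.72 and 1.69 CPM in WT and 12, 12 and 11.4 CPM in the deletion, a log2 change of 1.97 (standard error 0.29, adjusted p = 1.49e-05) beside 1.16 for its host. Scarna13, inside Snhg10, rose by 0.90 (standard error 0.32, adjusted p = 0.0168), while Snhg10 was at -0.42 and not called. Whether host and guest differed from each other was not tested. Counts over a guest in an intron cannot be told apart from unspliced host RNA.

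MicroRNA hosts fell. All 4 tested members, Mir17hg, Mir670hg, Mir9-3hg and Pvt1, were lower, with a median log2 change of -2.79. Of all genes tested, 46.1% were lower. In the full list, 9 genes were tested, 4 rose, 4 fell and 1 was not called, at a median of -0.26. The 4 that rose were Mir22hg, Mir100hg and Mir99ahg, at 2.58, 2.31 and 0.86, and Mir6236, at 0.68. Mir22hg, Mir100hg and Mir99ahg are host genes that carry another biotype. Mir6236 is annotated as a microRNA and not as a host gene. The list as a whole thus did not share the members' direction. Selected mature microRNAs of Mir17hg, Mir9-3hg and Mir670hg are shown, because they are what a host's transcript can give rise to. Their seed, bases 2 to 8 from the 5′ end, is in capitals (RefSeq, GRCm38.p6). Other mature forms, such as miR-9-3p of Mir9-3hg, are left out, and none is shown for Pvt1.
miR-17-5p (Mir17hg): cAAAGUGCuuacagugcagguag
miR-20a-5p (Mir17hg): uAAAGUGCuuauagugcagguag
miR-18a-5p (Mir17hg): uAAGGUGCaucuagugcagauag
miR-19a-3p (Mir17hg): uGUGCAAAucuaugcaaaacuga
miR-19b-3p (Mir17hg): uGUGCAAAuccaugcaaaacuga
miR-92a-3p (Mir17hg): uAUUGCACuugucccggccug
miR-9-5p (Mir9-3hg): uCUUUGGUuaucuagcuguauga
miR-129-5p (Mir670hg): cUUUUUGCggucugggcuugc
miR-670-5p (Mir670hg): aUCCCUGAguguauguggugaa

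In Mir17hg, miR-17-5p and miR-20a-5p share the seed AAAGUGC, and miR-19a-3p and miR-19b-3p share GUGCAAA. The 15 microRNA genes that lie within members were listed at 0 counts in every library. Whether RNAs as short as these were captured was not tested, so those zeros do not show absence. Mir17hg (chromosome 14, 115042879 to 115046727, plus strand), host of a cluster known for promoting cell growth, was at 16.3, 12.3 and 23.3 CPM in WT and 9.76, 7.96 and 5.72 CPM in the deletion. The groups lay close but apart, with a log2 change of -1.14 (standard error 0.26, adjusted p = 8.34e-04), and with no scaling factor the change was -0.50 and not called. Mir670hg (chromosome 2, 94160636 to 94264918, minus strand) fell from 15.3, 11 and 15.5 CPM to 1.01, 0.633 and 0.763 CPM, a log2 change of -4.09. Mir9-3hg (chromosome 7, 79500026 to 79534403, plus strand), a host of miR-9, known in neurons, fell from 10.2 ± 2.06 to 1.14 ± 0.239 CPM (SD, n = 3), a log2 change of -3.14.

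Pvt1 (chromosome 15, 62037986 to 62378096, plus strand) lies downstream of the growth regulator Myc, with starts 52595 bases apart. It was at 8.87, 10.8 and 7.47 CPM in WT and 2.3, 2.44 and 0.191 CPM in the deletion, where replicate 3 held 2 counts. Its log2 change was -2.44 with a standard error of 0.49 (adjusted p = 2.90e-04). Myc went the other way, from 0.156, 0.116 and 0.705 CPM to 5.99, 4.07 and 3.43 CPM, a log2 change of 3.76 with a standard error of 0.60 (adjusted p = 2.77e-05). In WT replicates 1, 2 and 3, 1 count was worth 0.156, 0.116 and 0.141 CPM. The size of the Myc gain therefore rests on few WT counts. Both genes were called, with no overlap of the groups in either.

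Other named RNAs rose by smaller steps. Oip5os1 (chromosome 2, 119594297 to 119607502, plus strand), also known as Cyrano, which carries a site for miR-7, was at 105, 97.9 and 102 CPM in WT and 205, 197 and 224 CPM in the deletion. Its libraries were tight within each group, and the log2 change was 1.03 (standard error 0.09, adjusted p = 2.78e-08). Lncpint, an RNA known as induced by p53, went from 6.86 ± 2.47 to 24.7 ± 3.14 CPM (SD, n = 3), a log2 change of 1.86. Trp53cor1, the p53-induced lincRNA-p21 beside Cdkn1a, did not pass the filter on low counts, at 0.156 to 1.28 CPM in WT and 0.191 to 1.99 CPM in the deletion. Read on either strand, 38.4% of its 50-base stretches occur in other annotated transcripts. These are chiefly AC167363.1 and Gm27599, whose exons overlap its own on the opposite strand. In the list of growth, p53 and tumour-linked RNAs, 2 tested members rose and 1, Pvt1, fell, and over all 9 tested genes 5 rose, 1 fell and 3 were not called.

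Dubr (chromosome 16, 50719294 to 50732773, minus strand), studied in muscle and nerve cells, went from 2.65, 1.4 and 2.26 CPM to 9.95, 9.13 and 10.2 CPM, a log2 change of 2.24 (standard error 0.31, adjusted p = 7.15e-06). Carmn, an RNA of smooth muscle and heart, went from 1.58 ± 0.0429 to 6.79 ± 1.96 CPM (SD, n = 3), a log2 change of 2.09 beside the median of 1.21 for the myoid list. AU020206, named after its values were seen, rose from 5.92, 10.1 and 6.91 CPM to 66.2, 46 and 47.8 CPM, a log2 change of 2.78. Bc1 (chromosome 7, 144914470 to 144914637, plus strand), a short RNA made by RNA polymerase III and known in neurons, rose by 0.64 (standard error 0.13, adjusted p = 3.89e-04). It was at 51.7 to 75.1 CPM in WT and 85.8 to 110 CPM in the deletion, and 31.1% of its 50-base stretches occur elsewhere in the transcriptome. BC043934 had the largest fitted gain of all members, 4.05, on 2 counts in WT and 13 to 27 per deletion library, and the value was 7.04 without WT replicate 3 and 3.43 without WT replicate 2. AI480526, Ino80dos and BC002059 rose by 1.26, 1.42 and 1.53, these 4 named after their values were seen. In AI480526 58.1% of the 50-base stretches occur in other transcripts, chiefly those of 4932422M17Rik and Gm38102, whose exons overlap its own on the opposite strand, so its counts are uncertain. The call of Ino80dos ended without WT replicate 1, WT replicate 3 or deletion replicate 2, at 1.03, 1.47 and 1.08.

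Direction depended on what a gene was compared with. With library factors that hold the Sertoli list level constant, 1 member rose and 28 fell, against 2.69% and 78.5% of all genes tested. The member that rose was Neat1, at 1.33 (standard error 0.19, adjusted p = 4.01e-07). Malat1, AU020206 and Snhg18 were at 0.39, 0.49 and 0.36 and not called, with standard errors of 0.27, 0.24 and 0.32. Dubr, Carmn and Lncpint were at -0.10, -0.21 and -0.48, also not called, and Oip5os1 and Bc1 turned to -1.31 and -1.68. All 16 members that fell with TMM fell here too. Because this scaling moves the median of all genes from -0.19 to -2.52, that is no separate check of those losses.

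Members were set beside the protein-coding gene with the nearest start. The median distance between starts was 33620 bases, and 30 of the 52 pairs had both genes tested. In 20 pairs both were called, 5 in the same direction and 15 in opposite ones, of which 9 paired a higher member with a lower neighbour and 6 the reverse. Opposite pairs thus made up 75% of 20, against 42.5% of the 9324 pairs with both genes called when every tested autosomal gene is set beside its nearest protein-coding gene, and 46.1% of 473 for the other autosomal lincRNAs. This difference was not tested, and the background was added after the members' count was seen. Over the 30 pairs, Pearson's r of the log2 changes was -0.34 and Spearman's rho -0.44, given as a description, since all pairs share the same 6 libraries. In 4 of the pairs with both genes called the starts lay within 2000 bases, and 2 of these went in the same direction. Bc1 and LTO1, at 0.64 and -0.71, and AI480526 and Setd1b, at 1.26 and -0.77, went opposite ways. Snhg18 is one of the pairs that went together. Its start lies 148 bases from that of Sema5a, a semaphorin on the opposite strand, which went from 16.1 ± 2.88 to 72.7 ± 5.39 CPM (SD, n = 3), a log2 change of 2.16 beside 2.66. Ino80dos and Ino80d, with starts 1589 bases apart on opposite strands, were at 1.42 and 1.38, and the exons of Ino80dos overlap those of Ino80d and Ndufs1 on the other strand, so their reads cannot be told apart with certainty.

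Several losses lay beside gains. Mir670hg, at -4.09, has as its nearest neighbour Hsd17b12, a steroid and fatty acid dehydrogenase, which rose from 17 ± 2.29 to 120 ± 14.4 CPM (SD, n = 3), a log2 change of 2.81 with starts 106954 bases apart. Rbakdn was at 0 in the deletion, and Rbak, 15024 bases away on the same strand, rose by 1.67. AV205837 was also at 0, and Apod, the apolipoprotein D gene 10427 bases away, rose by 2.87. Apod had few counts in WT, at 0.467, 1.05 and 0 CPM. Dubr showed the reverse, with its neighbour Ccdc54, a coiled-coil gene 141619 bases away, falling from 593 ± 46.2 to 0.521 ± 0.826 CPM (SD, n = 3). Oip5os1 rose while Nusap1, a mitotic spindle gene, fell by 3.17, and Neat1 rose while Frmd8 fell by 1.25.

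**Figure D4:**
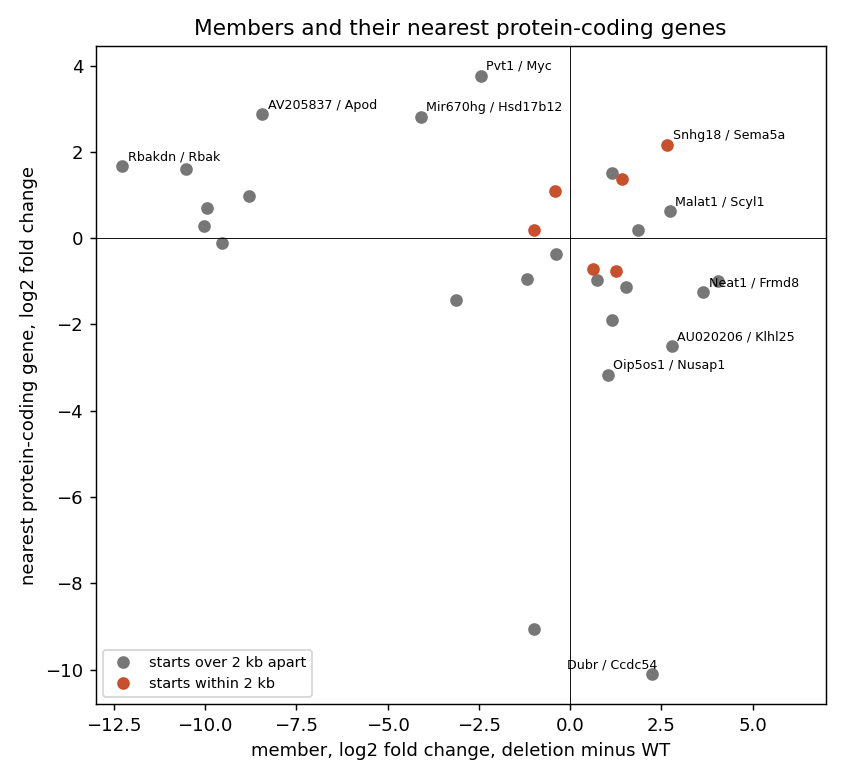
Log2 fold change of each member (x axis) against that of its nearest protein-coding gene (y axis), for the 30 pairs with both genes tested. Coloured points have starts within 2 kb. The upper left holds losses such as Rbakdn beside neighbours that rose, and the lower right holds gains such as Oip5os1 beside neighbours that fell.

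**Figure D5:**
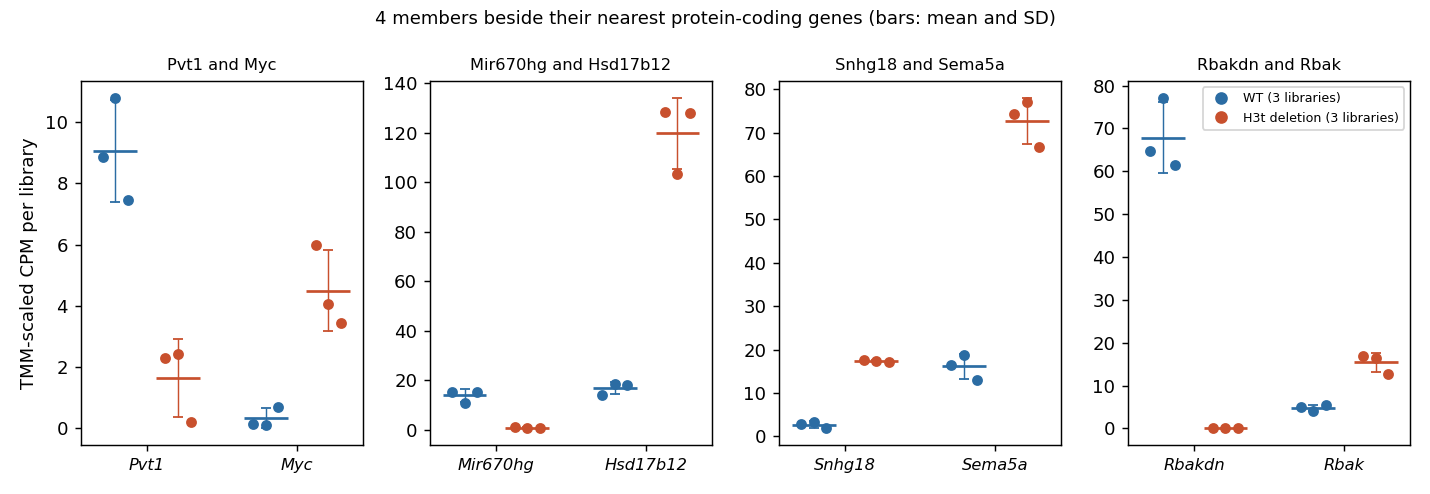
TMM-scaled CPM (y axis) of 4 members and their nearest protein-coding genes in each library, with the mean and SD of each group. Pvt1, Mir670hg and Rbakdn fall while Myc, Hsd17b12 and Rbak rise, and Snhg18 and Sema5a rise together.

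The members that were not called or not tested complete the set. Besides Rmst, Snhg10 and Snhg12, those not called were AC160336.1, Slmapos2, Lncbate1, EU599041 and Morrbid, with log2 changes from -1.18 for Lncbate1, an RNA named for brown fat, to 0.56 for Slmapos2. Mkln1os, whose start lies 38 bases from that of Mkln1, was called lower, from 3.89, 3.37 and 3.95 CPM to 2.03, 1.09 and 2.48 CPM (adjusted p = 0.0363), and the call ended when any library but deletion replicate 3 was left out, at adjusted p-values of 0.0553 to 0.145 by the same edgeR test. The 13 members that the filter on low counts left out were C78859, AW112010, AI504432, BC030343, Platr28, Epb41l4aos, Lncbate6, AI463229, Bvht, AI838599, Snhg15, Trp53cor1 and AI427809, with 30 to 64 counts over the 6 libraries. With no filter on low counts, 3 of these 13 were called lower, Bvht, an RNA of heart development, at -2.89, C78859 at -2.69 and Platr28 at -2.84, and 10 were not called. In structure, exons of the members that rose had a median total length of 2880 bases, against 1915 bases among those that fell. The longest transcript had a single exon in 6 of 15 members that rose and in 2 of 16 that fell. Some of these genes, such as AU020206 and Snhg20, have other transcripts that are spliced. Median GC content was 46.7% and 46.3%.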

How the data were processed

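The authors deposited raw counts of reads per Ensembl gene, 1 column per library, and the labels' protocols name a TaKaRa SMART-Seq Stranded kit. Trim Galore, HISAT2, featureCounts and GRCm38 are named in the submitters' processing notes. Of versions, annotation release and strand setting nothing is said there, and overlapping genes may share reads. Exons of 12 of the 52 members overlap another gene's on the same strand and those of 13 on the opposite strand. In 8 members over 10% of 50-base stretches occur, read on either strand, in other GENCODE M21 transcripts. All 54100 genes matched GENCODE M21 with the same chromosome, from which coordinates, 1-based, were taken. Promoters and microRNAs are from RefSeq tables of GRCm38.p6. Unused columns numbered 0.

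Tests were run with edgeR 4.0.16 (R 4.3.3), using filterByExpr, TMM (WT factors 0.794 to 0.806, deletion factors 1.21 to 1.27), the quasi-likelihood test and a false discovery rate of 0.05. The common biological coefficient of variation was 13.1%, and 1 count was worth 0.0904 to 0.156 CPM. The steps were also run on simulated counts in which most genes did not change. In these data 84.5% of the genes tested were called, so that run does not test the scaling used here. Only a mouse number in each title speaks for separate animals, so the p-values reflect the spread of these libraries, part of which may be technical. Members and lists were chosen with earlier results of these data known. Named were all tested members of the snoRNA host, microRNA host and nuclear-retained lists. Accession-like names aside, the 8 called members of highest mean CPM in each direction were added, and the 6 largest changes in each direction among called members with a mean of at least 1 CPM and no overlap. Others are marked where they are named. Alternatives were RLE, upper-quartile, no and Sertoli-level scaling, other filters, DESeq2 1.42.0, a false discovery rate of 0.01, 100 or more counts, and each library left out. The share of all members was also taken of autosomal counts.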

Additional observations from a re-analysis of the deposited data

How the results depend on the processing

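Of 442 values of 34 named members under other settings, 403 kept their call or stayed uncalled, 23 lost the call and 5 gained it. Values not called in either fit count as kept whatever their sign, such as Rmst at -0.08 without deletion replicate 3. Snhg10, at 0.22 with no scaling factor, is another such value. The remaining 11 reversed in sign, all 11 with Sertoli-level scaling, and some of these, such as Dubr and Carmn, were not called there. With that scaling 1 member was higher and 28 were lower, against 15 and 16 with TMM, and the reversed log2 changes were -1.06 for AI480526, -0.80 for BC002059, -1.68 for Bc1, -0.21 for Carmn, -0.10 for Dubr, -0.85 for Ino80dos, -0.48 for Lncpint, -1.31 for Oip5os1, -1.41 for Snhg12, -1.13 for Snhg20 and -1.15 for Snhg6. The cause lies in the construction, which moves the median of all genes from -0.19 to -2.52. RLE put that median at -0.36, upper-quartile scaling at 0.35 and totals alone at 0.45, with 14 and 17, 17 and 15, and 17 and 14 members higher and lower. Higher calls made up 45.4% of all calls with TMM and 55.1% and 56.6% with the last 2. Outside the scalings, Snhg20 and Ino80dos lost their calls with DESeq2 and Mkln1os with no filter, and all of them in the fits without 1 library given above. The gain in the members' share of counts kept its direction in each planned setting, at 0.117 points without Malat1 and 1.87 to 2.37 with 1 library left out. Taking out Neat1 as well as Malat1 left a difference of -0.00676 points, so the gain rests on these RNAs. No paired analysis was possible because each mouse has its own number in the labels and none is shared between the groups. With no filter on low counts, 15 members were higher and 18 lower, and 3 of the 13 left out by the filter were called. Depth limits the others, which have at most 64 counts over the 6 libraries.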
